A study of Mus musculus with 12 samples.

Results

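The tumour suppressor p53, encoded by Trp53, and 9 genes known as its direct transcriptional targets were followed across 4 genotypes of mouse blood progenitors. The 10 genes, Trp53, Mdm2, Mdm4, Ccng1, Aen, Trp53inp1, Zmat3, Sesn1, Eda2r and Phlda3, were taken by symbol from a table of 55450 genes. All 10 passed the filter on low counts and were among the 14346 genes tested. The set was chosen by function and not by the values in this table, although earlier results on these data were known.

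Under stress such as DNA damage, p53 is stabilised and binds paired copies of a short consensus half-site to raise the transcription of genes for cell cycle arrest, DNA repair and apoptosis. Mdm2, an E3 ubiquitin ligase that marks p53 for degradation, is itself a target and closes a negative feedback loop, and its relative Mdm4 restrains the activity of p53. In blood stem and progenitor cells p53 is known for its part in quiescence and in the response to genotoxic stress. Because p53 is controlled largely through its protein, the level of Trp53 transcript is not a measure of its activity.

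Progenitors of donor origin (lineage-negative and Kit-positive) came from the marrow of recipients of competitive transplants, and their total RNA was sequenced after depletion of ribosomal RNA. There were 3 libraries for each of 4 genotype labels, 12 in all. WT libraries carried no deletion label, Tet2KO libraries a knockout of Tet2, Id1KO libraries a knockout of Id1, and dKO libraries both. Tet2 encodes a DNA dioxygenase whose loss promotes clonal expansion of blood cells, and Id1 encodes an inhibitor of transcription factors of the helix-loop-helix class. All groups share the transplant setting. The labels give no allele, Cre driver, strain, age or number of animals, and the 3 libraries of a genotype may be repeats of 1 cell sample, so p-values measure the spread between these libraries.

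Libraries held 15706407 to 19959183 estimated counts. Small structural RNAs held 8.62 to 8.88% of the counts in WT libraries and 5.74 to 6.66% in those of the other genotypes. Beyond the scaling of libraries, the part of this difference in comparisons with WT was not tested. The targeted genes went against the labels: Tet2 averaged 99.3 CPM, the count scaled by library size, among WT, 130 among Tet2KO, 92 among Id1KO, and 118 among dKO libraries, and Id1 averaged 1.47, 3.86, 3.96 and 3.93. Neither was lower where its knockout was labelled, so every genotype named here is that of the label. The progenitor markers Kit and Cd34 averaged 335 and 321 CPM over the 12 libraries, whereas Cd3e of T cells had at most 1 count. Of the stroma and endothelium markers, Cxcl12, Col1a1, Cdh5 and Lepr had at most 6 counts in any library, and Pdgfrb averaged 34.8 CPM. By fold, erythroid markers differed most among the lineage lists: their summed level was 1300 to 1350 CPM among WT, 725 to 730 among Tet2KO, 1400 to 1410 among Id1KO, and 1260 to 1270 among dKO libraries. Car1 and Car2, at a mean of 439 and 434 CPM over the 12 libraries, weigh most in these sums. Single markers could go the other way: in dKO against WT, 5 of 13 were higher and 1 lower. In such bulk samples, fewer cells of a type and less RNA per cell cannot be told apart.

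The start regions of the genes were read for the p53 consensus half-site, a motif of 10 bases, and for a site of 20 bases made of a pair of half-sites, on both strands and allowing the pair up to 3 mismatches. Windows ran from 250 bases before to 50 bases after each RefSeq start (GRCm38.p6), and 8 of the 10 genes had at least 1 window. Zmat3 and Trp53inp1 were not matched. A half-site was found in 5 of the 8, Trp53, Mdm2, Ccng1, Aen and Sesn1, against 9.6% of 27025 genes. The paired site overlaps the half-site where it contains one, and it was found in 5 of the 8 genes, against 7.2% of all genes. These were Trp53, Mdm4, Ccng1, Aen and Sesn1, so Mdm2 had a half-site only and Mdm4 a paired site only. Outside Ccng1 each pair had 3 mismatches, and that of Mdm4 is not printed. The closest pair, with 1 mismatch, lay before the start of Ccng1 at chr11:40755437-40755506 on the minus strand. It is printed first, with the 20-base site in capitals, and is followed by half-sites in capitals from Sesn1 (chr10:41887241-41887300, plus strand), Mdm2 (chr10:117710910-117710969, minus strand), Trp53 (chr11:69580259-69580318, plus strand) and Aen (chr7:78895927-78895956, plus strand, within an annotated exon), because these are the genes whose levels are described next.
Ccng1: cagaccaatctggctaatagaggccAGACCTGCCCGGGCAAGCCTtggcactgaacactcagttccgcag
Sesn1: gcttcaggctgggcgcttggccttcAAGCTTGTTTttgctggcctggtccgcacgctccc
Mdm2: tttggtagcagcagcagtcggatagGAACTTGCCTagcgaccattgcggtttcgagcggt
Trp53: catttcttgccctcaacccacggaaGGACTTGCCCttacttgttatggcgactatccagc
Aen: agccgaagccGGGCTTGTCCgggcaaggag
A match is a description of the letters and was not tested for binding, and a window without a match says only that these letters are not in it.

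Per kb of exon, Trp53 and Ccng1 were the most abundant of the 10 genes and Eda2r the least. Averaged over 12 libraries, Trp53 was at 27.3 and Ccng1 at 27.2 CPM per kb. Mdm4, Aen, Mdm2 and Sesn1 followed at 12.5, 12.3, 11.3 and 11.2, and Trp53inp1 was at 3.11. Phlda3, Zmat3 and Eda2r were low, at 0.728, 0.341 and 0.12 CPM per kb, and Eda2r had only 9 to 18 and Phlda3 13 to 33 counts per library. Among the 7 genes above 5 CPM, the ratio of the highest to the lowest genotype mean was 1.08 for Trp53, 1.11 for Mdm4, 1.15 for Aen, 1.16 for Ccng1 and for Sesn1, 1.18 for Mdm2 and 1.55 for Trp53inp1, against a median of 1.14 over 10335 tested genes with at least 5 CPM. Trp53 and Mdm4 were thus below that median and the other 5 above it. The ratios of the low genes, 1.69 for Zmat3, 1.66 for Eda2r and 1.42 for Phlda3, have no such reference.

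**Figure D1:**
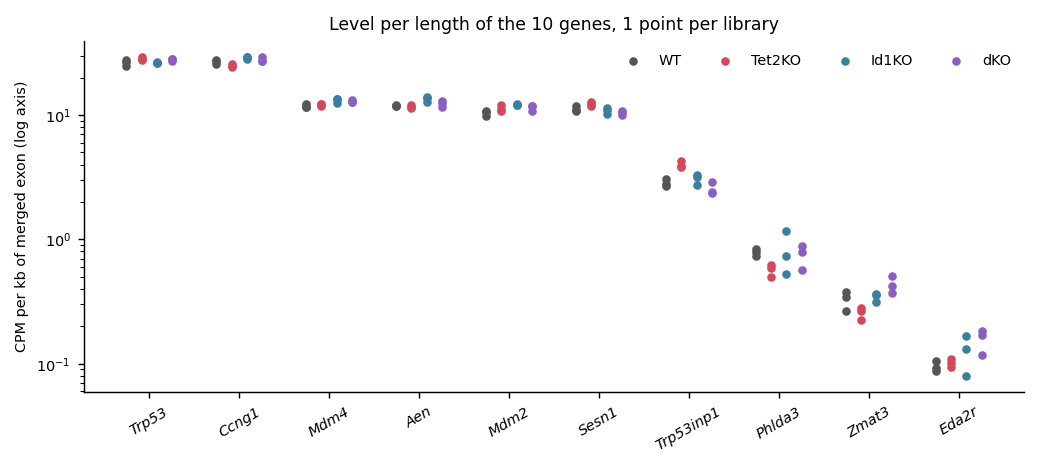
Level of each gene in CPM per kb of merged exon (log axis), with 1 point per library and colours for the 4 labelled genotypes. Trp53 and Ccng1 lie near 27 CPM per kb in all genotypes, and Phlda3, Zmat3 and Eda2r lie below 2.

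Trp53, on chromosome 11 (69580359 to 69591873, plus strand, GRCm38), was nearly level across the genotypes. Its CPM were 112.9, 101.2 and 107.9 among WT, 113.4, 118.3 and 112.8 among Tet2KO, 106.3, 105.2 and 107.2 among Id1KO, and 114.2, 114.0 and 110.6 among dKO libraries. In the order Tet2KO, dKO, WT and Id1KO, each genotype overlapped the next. The processed copy Trp53-ps shares 353 bp at 97.7% identity with Trp53, so a small part of the reads could be assigned to either.

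Mdm2 and Mdm4, the 2 restraining partners of p53, were highest in Id1KO libraries. Mdm2, on chromosome 10 (117688875 to 117710758, minus strand), was at 49.56, 53.67 and 54.42 CPM among WT, 56.5, 61.35 and 54.72 among Tet2KO, 61.77, 61.51 and 62.95 among Id1KO, and 54.83, 60.35 and 60.37 among dKO libraries. All WT libraries lay below all others. Mdm4, on chromosome 1 (132959484 to 133030561, minus strand), was at 183.2, 172.3 and 171.8 CPM among WT, 181.0, 183.1 and 175.3 among Tet2KO, 197.9, 186.6 and 199.3 among Id1KO, and 186.9, 196.0 and 188.5 among dKO libraries, so that WT overlapped Tet2KO and lay below the other genotypes. The ratio of Mdm2 to Trp53 counts within a library, which needs no scaling between libraries, was 0.491 ± 0.047 (SD, n = 3) among WT, 0.501 ± 0.017 among Tet2KO, 0.585 ± 0.003 among Id1KO, and 0.518 ± 0.034 among dKO libraries. The 3 Id1KO ratios, 0.581 to 0.587, were above those of all 9 other libraries.

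Ccng1 encodes cyclin G1, a target that recruits a phosphatase to Mdm2, and Aen encodes an exonuclease linked to apoptosis. Ccng1, on chromosome 11 (40748552 to 40755311, minus strand), was at 91.13, 95.74 and 97.59 CPM among WT, 86.15, 89.71 and 87.3 among Tet2KO, 102.9, 99.29 and 103.4 among Id1KO, and 95.59, 103.3 and 95.99 among dKO libraries. Its Tet2KO libraries were the 3 lowest of the 12. Aen, on chromosome 7 (78895854 to 78911209, plus strand), was at 69.15, 69.24 and 68.03 CPM among WT, 69.55, 67.37 and 66.67 among Tet2KO, 79.89, 73.69 and 81.05 among Id1KO, and 75.12, 67.11 and 72.54 among dKO libraries. Id1KO and dKO libraries overlapped for Aen, and those of Id1KO lay above all WT and Tet2KO libraries.

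Trp53inp1 encodes a nuclear cofactor that promotes p53 activity and also acts in autophagy, and Sesn1 encodes a sestrin that restrains the growth kinase mTORC1. Trp53inp1, on chromosome 4 (11156431 to 11174379, plus strand), was at 17.26, 19.85 and 18.21 CPM among WT, 25, 27.46 and 24.56 among Tet2KO, 20.65, 17.85 and 21.46 among Id1KO, and 15.28, 18.62 and 15.71 among dKO libraries. The 3 Tet2KO libraries were the highest of the 12, with no overlap. Sesn1, on chromosome 10 (41809935 to 41908424, plus strand), was at 43.91, 42.95 and 47.17 CPM among WT, 47.18, 48.43 and 50.25 among Tet2KO, 40.52, 43.61 and 45.72 among Id1KO, and 40.06, 42.21 and 43.12 among dKO libraries. Its Tet2KO libraries were also the highest, just above the nearest WT library.

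Zmat3, which encodes an RNA-binding protein that regulates splicing, had the widest range of the genes above 2 CPM. On chromosome 3 (32334792 to 32366014, minus strand), it was at 3.94, 3.042 and 4.323 CPM among WT, 2.574, 3.217 and 3.016 among Tet2KO, 4.173, 4.059 and 3.576 among Id1KO, and 4.247, 5.807 and 4.785 among dKO libraries. Tet2KO and dKO libraries did not overlap. Eda2r, a receptor of the TNF receptor family on chromosome X, ranged from 0.4684 to 1.078 CPM over the libraries, and Phlda3, an inhibitor of Akt signalling on chromosome 1, from 0.7744 to 1.816. At this depth neither was called in any comparison. Eda2r was 0.73 higher on the log2 scale in dKO than in WT (95% interval 0.05 to 1.4, edgeR adjusted p 0.127), without overlap. Its dKO and Tet2KO libraries did not overlap either, at 0.63 (-0.05 to 1.31, edgeR adjusted p 0.169). For Phlda3, Tet2KO and WT libraries did not overlap, at -0.46 (-1.07 to 0.15, edgeR adjusted p 0.249).

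**Figure D2:**
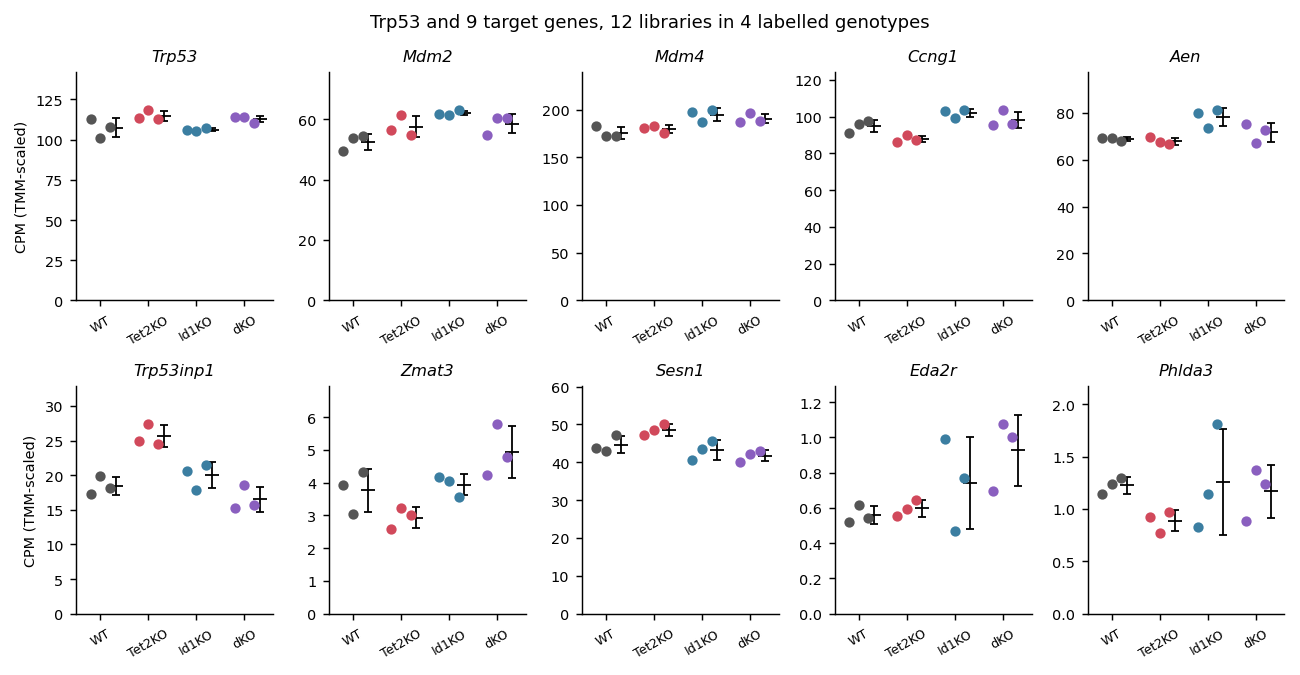
CPM of each gene in each of 12 libraries (y axes start at 0), grouped by labelled genotype, with the mean and SD of 3 libraries as black bars. Trp53inp1 is highest in the 3 Tet2KO libraries, Mdm2 lowest in the 3 WT libraries, and Trp53 nearly level.

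Libraries labelled Tet2KO and WT differed in Trp53inp1, Trp53 and Ccng1. Trp53inp1 rose 1.39-fold, or 0.48 ± 0.079 (SE) on the log2 scale (edgeR adjusted p 0.000108), and this call was kept in all 12 fits that each left out 1 library. Trp53 rose by 0.10 ± 0.036 (edgeR adjusted p 0.0422) and Ccng1 changed by -0.11 ± 0.037 (edgeR adjusted p 0.0233). Thus 3 of the 10 genes were called, 2 higher and 1 lower, where 32.8% of all tested genes were called, 16.6% higher and 16.2% lower, and the median over the 10 genes was 0.06 against -0.003 over all genes. Libraries did not overlap for 5 of the 10, against 46.0% of all genes. Both shares are near the background and are no result about the set. The call for Trp53 was lost without WT replicate 2 (adjusted p 0.215), Tet2KO replicate 2 (0.15), WT replicate 3 (0.0648), Tet2KO replicate 1 (0.0611) or Id1KO replicate 2 (0.0524), under DESeq2, without a filter on low counts and in a fit of the compared libraries alone. That for Ccng1 was lost without WT replicate 3 (0.133), WT replicate 2 (0.0882), Tet2KO replicate 3 (0.0859) or Tet2KO replicate 1 (0.0854), and under DESeq2. Mdm2 and Sesn1 did not pass the threshold, with log2 differences of 0.13 (95% interval 0.03 to 0.23, edgeR adjusted p 0.0507) and 0.12 (0.02 to 0.23, 0.0682).

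In libraries labelled Id1KO, the restraining genes Mdm2 and Mdm4 and the exonuclease gene Aen were higher than in WT. Mdm2 rose 1.18-fold, by 0.24 ± 0.049 (SE) on the log2 scale (edgeR adjusted p 0.00199). Mdm4 rose by 0.15 ± 0.033 (edgeR adjusted p 0.00469) and Aen by 0.18 ± 0.042 (edgeR adjusted p 0.00534). These 3 calls were kept in each of the 12 fits with 1 library left out. For the set, 3 of 10 genes were called, where 15.0% of all genes were called, 7.26% higher and 7.77% lower, and the median was 0.11 against -0.008. Libraries did not overlap for 4 of 10, against 32.7% of all genes. Trp53 itself differed by -0.02 (95% interval -0.09 to 0.06), and Ccng1, at 0.10 (0.03 to 0.18, edgeR adjusted p 0.056), did not pass. Other markers moved in the same comparison. Summed megakaryocyte markers were at 224 to 237 CPM in Id1KO and 158 to 164 in WT libraries (3 of 7 higher), and neutrophil granule markers at 12200 to 13200 and 14400 to 14500 CPM (2 of 10 lower). Of the monocyte and dendritic markers 1 of 5 was higher and 4 were lower, and of those of G2 and M phase 5 of 10 were higher. Of the stem and progenitor markers 1 of 10 was higher and 5 were lower. Their part in the differences was not tested.

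Mdm2 and Mdm4 were also the genes called in dKO against WT. Mdm2 rose by 0.16 ± 0.05 (SE) on the log2 scale (edgeR adjusted p 0.0317) and Mdm4 by 0.12 ± 0.033 (edgeR adjusted p 0.0186). The count of 2 of 10 stands beside 19.2% of all genes called, 10.2% higher and 8.97% lower, and 3 of 10 genes had no overlap between libraries, against 33.1%. The median over the 10 genes was 0.06 against -0.003 over all. The call for Mdm2 was lost without WT replicate 1 (adjusted p 0.135), dKO replicate 3 (0.115) or dKO replicate 2 (0.104) and under DESeq2, and that for Mdm4 without WT replicate 3 (0.0784), WT replicate 2 (0.0708) or dKO replicate 2 (0.0645). The 3 contrasts with WT share its libraries, so their values are not independent. Markers moved in dKO against WT too. Of those of G2 and M phase 9 of 10 were higher and 0 lower. Of the stem and progenitor markers 1 of 10 was higher and 6 were lower, and of the erythroid markers 5 of 13 higher and 1 lower. The part of these markers in the differences was not tested.

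Set against Tet2KO, dKO libraries had lower Trp53inp1 and Sesn1 and higher Ccng1 and Zmat3. Trp53inp1 fell to 0.645 of its Tet2KO level, or by -0.63 ± 0.083 (SE) on the log2 scale (edgeR adjusted p 1.2e-05). Sesn1 changed by -0.22 ± 0.052 (edgeR adjusted p 0.00394). Zmat3 rose 1.68-fold, by 0.75 ± 0.16 (edgeR adjusted p 0.00154), and Ccng1 by 0.16 ± 0.037 (edgeR adjusted p 0.00251). All 4 calls were kept in the 12 fits with 1 library left out. They make 4 of 10 genes, where 26.4% of all genes were called, 13.1% higher and 13.4% lower, and libraries did not overlap for 6 of 10, against 39.9%. The median over the 10 genes was 0.08, against 0 over all. Erythroid markers moved with these contrasts: 12 of 13 were lower in Tet2KO than in WT (median log2 difference -0.84) and 12 of 13 higher in dKO than in Tet2KO (median 0.99). Markers of G2 and M phase were higher in dKO than in Tet2KO for 9 of 10, with summed levels of 2580 to 2640 and 2420 to 2450 CPM. Their part in the differences was not tested.

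Set against Id1KO, dKO libraries had lower Aen and Trp53inp1. Aen changed by -0.13 ± 0.043 (SE) on the log2 scale (edgeR adjusted p 0.042) and Trp53inp1 by -0.27 ± 0.085 (edgeR adjusted p 0.0301), and for both the libraries of the 2 genotypes overlapped. These 2 of 10 stand beside 19.3% of all genes called, 10.6% higher and 8.7% lower, and 3 of 10 had no overlap, against 33.2%. The median over the 10 genes was -0.05, against -0.002 over all. The call for Aen was lost without dKO replicate 2 (adjusted p 0.18), Id1KO replicate 3 (0.152), Id1KO replicate 1 (0.133) or dKO replicate 3 (0.0666), under DESeq2 and in a fit of the compared libraries alone. That for Trp53inp1 was lost without Id1KO replicate 3 (0.129), dKO replicate 1 (0.129), dKO replicate 3 (0.119) or Id1KO replicate 1 (0.0983). Of the megakaryocyte markers 0 of 7 were higher and 5 lower here, and of the erythroid markers 5 of 13 higher and 3 lower. The part of these markers in the differences was not tested.

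**Figure D3:**
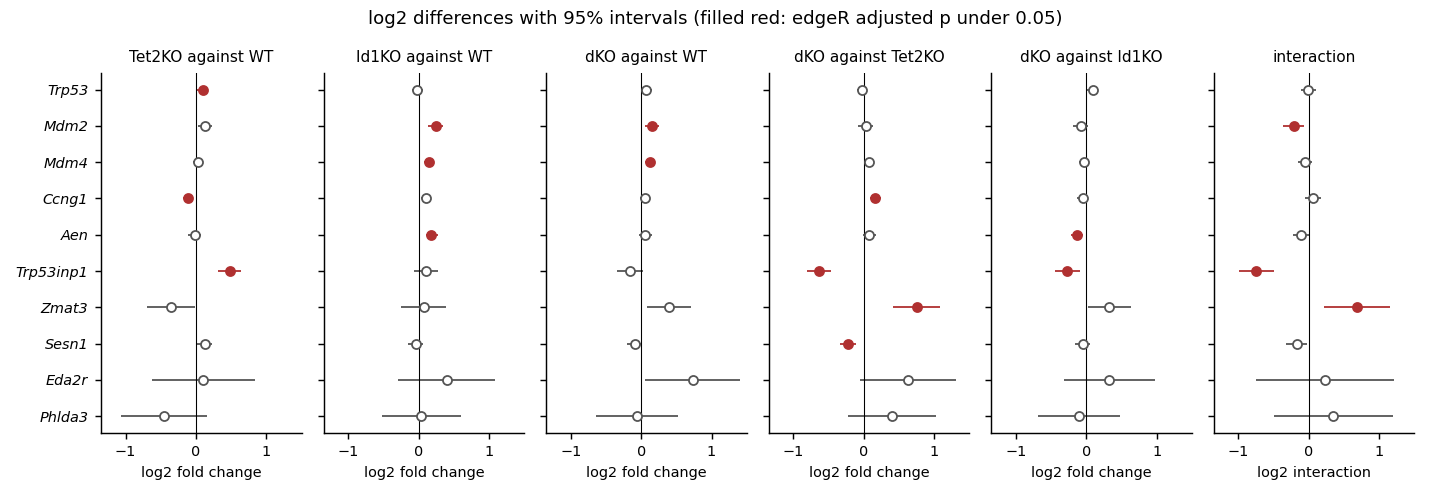
log2 differences of the 10 genes with 95% intervals in each comparison and in the interaction, with filled red points where the edgeR adjusted p was under 0.05. Trp53inp1 is at 0.48 in Tet2KO against WT, at -0.63 in dKO against Tet2KO, and the intervals of Eda2r and Phlda3 are the widest.

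The change with the Id1 label was compared between the 2 Tet2 backgrounds by subtracting the log2 difference of Id1KO and WT from that of dKO and Tet2KO, which gives the interaction. Trp53inp1 was 0.11 higher in Id1KO than in WT on the log2 scale, short of the threshold, and fell by 0.63 from Tet2KO to dKO. Its interaction was -0.75 ± 0.12 (SE) with an edgeR adjusted p of 0.000205, and the call was kept in the 12 fits with 1 library left out. Mdm2 had an interaction of -0.21 ± 0.07 (edgeR adjusted p 0.0449), from changes of 0.24 on the WT and 0.03 on the Tet2KO background. Zmat3 had one of 0.69 ± 0.22 (edgeR adjusted p 0.0436), from changes of 0.07 and 0.75. With 3 of 10 genes against 14.5% of all genes called, 7.46% with a positive and 7.03% with a negative value, the median interaction was -0.03 against 0.009 over all. The call for Mdm2 was lost without Tet2KO replicate 2 (adjusted p 0.125), WT replicate 1 or dKO replicate 1 (each 0.105), Id1KO replicate 3 (0.0728), Id1KO replicate 1 (0.0695), Id1KO replicate 2 (0.0636) or Tet2KO replicate 1 (0.0582), and under DESeq2. That for Zmat3 was lost on leaving out any library but WT replicate 2 or dKO replicate 1, 10 of 12 fits, with the highest adjusted p (0.128) without WT replicate 3, and under DESeq2 and limma-voom. Lineage markers were called in the interaction too. Of the erythroid markers 12 of 13 had a positive value (median of the list 0.93), and of the megakaryocyte markers 4 of 7 a negative one (median -0.49). Their part in the differences was not tested.

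All of these calls rest on the spread between libraries. When the 3 libraries of a genotype were summed to 1 sample and the Tet2 and Id1 labels were fitted as additive effects, none of the 10 genes was called by edgeR in any of the 5 pairwise comparisons. Additive effects give each label a single value on both backgrounds, so that Id1KO against WT and dKO against Tet2KO are the same estimate, as are Tet2KO against WT and dKO against Id1KO. With only 4 samples, that fit called few of all tested genes too. The lack of calls is therefore no result about the 10 genes. At an unadjusted p under 0.05, that fit gave 1 gene for the Id1 label, 0 for the Tet2 label and 0 in dKO against WT.

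Genes whose log2 CPM followed each of the 10 most closely were listed by Pearson correlation over the 12 libraries among 9772 genes, as a description in which all points share libraries and genotypes. Trp53 was followed by Gsk3b (0.944) and Stambp (0.93), Mdm2 by Pafah1b1 (0.931) and Uhrf2 (0.909), and Mdm4 by Tnks2 (0.961) and Ndc80 (0.943). For Ccng1 they were Srsf1 (0.969) and Sept7 (0.964), for Aen Knop1 (0.933) and Ccdc134 (0.921), and for Trp53inp1 Cntln (0.955) and Muc13 (0.944). Zmat3 was followed by Nop14 (0.94) and Ywhah (0.926), and Sesn1 by P3h3 (0.908) and Calcrl (0.889). Eda2r was followed by Ercc6l (0.915) and Far1 (0.887) and Phlda3 by Rnft1 (0.863) and Asf1a (0.84). Only genes with a mean of at least 5 CPM could be listed, so Zmat3, Eda2r and Phlda3 could not be. The rest of the 10 were not among the 2 genes closest to another of the 10.

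Lists of other p53 targets, chosen by function, were read in the same comparisons. The shares of all tested genes called, for reference, were 32.8% in Tet2KO against WT, 15.0% in Id1KO against WT and 19.2% in dKO against WT. For dKO they were 26.4% against Tet2KO and 19.3% against Id1KO. These shares are those of edgeR, and DESeq2 called fewer of all tested genes in each comparison. In the same order it called 3592, 1418, 1868, 2745 and 1901 genes, where edgeR called 4699, 2156, 2754, 3793 and 2762. A lower DESeq2 count in a list is thus by itself no result about that list. Among 12 tested targets in cell cycle arrest, 1 was higher and 4 lower in Tet2KO than in WT, where 16.6% of all genes were higher and 16.2% lower, and the median log2 difference was -0.01, against -0.003 over all genes. The arrest gene Ptprv, a receptor phosphatase, was at 21.31, 21.71 and 20.43 CPM in WT and 11.58, 12.39 and 12.28 in Tet2KO, and it was also lower in the other genotypes, with log2 fold changes of -0.81 in Tet2KO, -0.82 in Id1KO and -0.89 in dKO against WT. Pvt1, a noncoding transcript next to Myc, went from 7.257, 8.043 and 7.889 CPM in WT to 4.167, 3.395 and 3.824 in Tet2KO, -1.03 ± 0.11 (SE) on the log2 scale (edgeR adjusted p 7.32e-07). Plk3, a stress-responsive kinase, changed by -0.70 ± 0.18 (edgeR adjusted p 0.00508), whereas Btg2, an antiproliferative gene, rose by 0.18, short of the threshold without WT replicate 3 (adjusted p 0.0524). From Tet2KO to dKO, Pvt1 rose by 0.84 and Gtse1, a p53-binding protein of G2 and S phase, by 0.27. Arrest genes numbered 3 higher and 1 lower there, beside 13.1% and 13.4% of all genes. From Id1KO to dKO 1 was higher and 1 lower, beside 10.6% and 8.7%, and DESeq2 called 0. These were the noncoding Trp53cor1, 1.23 ± 0.43 (SE) higher (edgeR adjusted p 0.0497, lost in 11 of 12 fits with 1 library left out, up to 0.258 without dKO replicate 2), and Gadd45a, a growth arrest gene outside the rule for named genes that was picked after its values were seen, at -0.27 (edgeR adjusted p 0.0426, lost in 5 fits, up to 0.163 without Id1KO replicate 3). Trp53cor1 had only 6 to 26 counts per library. Gadd45a was also lower in Tet2KO than in WT, at -0.41 on the log2 scale (edgeR adjusted p 0.00202, kept in all 12 left-out fits). It rose by 0.29 from Tet2KO to dKO (edgeR adjusted p 0.0352), a call lost in 3 left-out fits and under DESeq2. Ckap2, a spindle protein, averaged 39.1 CPM in WT and was not called in any pairwise comparison.

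Cdkn1a, which encodes the arrest protein p21 and is the best known of the targets, was low. It was at 4.043, 3.609 and 3.566 CPM among WT, 4.228, 5.242 and 3.501 among Tet2KO, 5.216, 5.464 and 5.172 among Id1KO, and 6.402, 4.789 and 4.667 among dKO libraries. WT libraries lay below those of Id1KO and dKO and overlapped those of Tet2KO. Among the 12 arrest genes, 2 were higher and 1 lower in Id1KO than in WT, and 2 were higher and 1 lower in dKO than in WT, beside 15.0% and 19.2% of all genes called, and DESeq2 called 2 in each. The higher 2 were Cdkn1a and Gtse1 in both comparisons, with Gtse1 0.36 higher in Id1KO and 0.26 in dKO. Cdkn1a rose by 0.50 ± 0.15 (SE) and 0.49 ± 0.15 (edgeR adjusted p 0.0283 and 0.0269), and left-out libraries ended these calls in 5 and 3 of 12 fits (adjusted p 0.0894 without WT replicate 3 and 0.157 without dKO replicate 1). Neither Cdkn1a call was made by DESeq2.

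Targets in apoptosis counted 1 higher and 2 lower of 12 in Tet2KO against WT, beside 32.8% of all genes called there. The median log2 difference was -0.08, against -0.003 over all genes. Pmaip1, which encodes the BH3-only protein Noxa, was at 8.398, 9.332 and 9.348 CPM among WT, 4.412, 4.646 and 4.578 among Tet2KO, 6.974, 8.274 and 8.198 among Id1KO, and 9.065, 7.064 and 7.029 among dKO libraries. The 3 Tet2KO libraries were below all others, and Pmaip1 changed by -0.99 ± 0.12 (SE) on the log2 scale against WT (edgeR adjusted p 2.11e-06) and by 0.76 ± 0.12 from Tet2KO to dKO (edgeR adjusted p 0.000113). Apaf1, the apoptosome scaffold, rose by 0.21 in Tet2KO against WT, and Bid, which links death receptors to mitochondria, changed by -0.12, a call ended by 4 left-out libraries (adjusted p 0.0756 without Tet2KO replicate 2). Bid changed by -0.20 in Id1KO, where 0 of 12 were higher and 2 lower, beside 15.0% of all genes called. In dKO against WT 1 was higher and 3 lower, beside 19.2%, and DESeq2 called 1. Among the lower was Perp, a membrane protein of low level, at -0.80 ± 0.28 (SE) with an edgeR adjusted p of 0.0479, a call lost in 10 of 12 fits with 1 library left out (0.14 without WT replicate 1). From Tet2KO to dKO 1 was higher and 1 lower, beside 26.4%, and DESeq2 called 1. Siva1, a proapoptotic gene at 51.6 CPM in WT, was not called in any pairwise comparison. In dKO against Id1KO edgeR called 0 of the 12, with 2 at an unadjusted p under 0.05, and DESeq2 and limma-voom also called 0.

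For targets in repair and metabolism, 0 of 17 were higher and 3 lower in Tet2KO against WT, beside 32.8% of all genes called there. The median log2 difference was -0.05, against -0.003 over all genes. Gls2, a mitochondrial glutaminase, fell by 1.3 ± 0.26 (SE) on the log2 scale (edgeR adjusted p 0.000598) and rose by 1.28 ± 0.26 from Tet2KO to dKO (edgeR adjusted p 0.0012). Gls2 was low, averaging 2.59 CPM in WT and 1.05 in Tet2KO. It had 14 to 62 counts per library, and Cpt1c had 17 to 52. Cpt1c changed by -0.72 in Tet2KO, a call that 4 of the 12 left-out libraries ended (adjusted p 0.122 when Tet2KO replicate 2 was dropped), and DESeq2 did not make it. Xpc, which recognises damage in nucleotide excision repair, was lower in each pairwise comparison, by log2 fold changes of -0.20 in Tet2KO, -0.17 in Id1KO and -0.40 in dKO against WT, and of -0.20 and -0.23 in dKO against Tet2KO and Id1KO. The antioxidant gene Gpx1, at 892 CPM in WT, changed by -0.17 in Id1KO and -0.12 in dKO against WT. The second call was lost in 3 of 12 left-out fits (highest edgeR adjusted p 0.137, without dKO replicate 2). It was also lost in a fit of the compared libraries alone. Fdxr, a mitochondrial reductase at 31.8 CPM in WT, was not called in any pairwise comparison. The list held 2 higher and 3 lower in Id1KO against WT (15.0% of all genes called), 0 and 3 in dKO against WT (19.2%), 2 and 3 in dKO against Tet2KO (26.4%), and 0 and 2 in dKO against Id1KO (19.3%). DESeq2 called 3, 3, 3 and 1 of the 17 in these comparisons.

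Paralogs of the 10 genes were followed for the families they belong to, and 9 of 13 were tested. In Tet2KO against WT 2 were higher and 3 lower, 5 of 9 beside 32.8% of all genes called, with a median log2 difference of 0.03. Sesn3, a second sestrin, was at 17.73, 17.74 and 17.56 CPM in WT and 25.74, 26.98 and 26.28 in Tet2KO, 0.57 ± 0.06 (SE) higher on the log2 scale (edgeR adjusted p 3.93e-07), and Ccng2, the relative of cyclin G1, rose by 0.36 ± 0.059 while Ccng1 fell by 0.11. Isg20, an exonuclease related to Aen, changed by -0.97 ± 0.11 (edgeR adjusted p 1.57e-06), and Phlda2, related to Phlda3, by -1.60 ± 0.41 (edgeR adjusted p 0.00456). Phlda2 was low, with only 3 to 20 counts per library, and averaged 0.839 CPM in WT and 0.275 in Tet2KO. Isg20l2, a nucleolar relative of Isg20, changed by -0.12. This call was lost in 3 of 12 left-out fits (highest edgeR adjusted p 0.132, without WT replicate 2). From Tet2KO to dKO, Sesn3 changed by -0.49, Ccng2 by -0.35 and Isg20 by 0.65, which makes 1 higher and 2 lower, beside 26.4% of all genes called. In dKO against WT 0 were higher and 1 lower, beside 19.2%, and DESeq2 called 0. Of the 9, edgeR called 0 both in Id1KO against WT and in dKO against Id1KO, with 1 at an unadjusted p under 0.05 in each, and DESeq2 and limma-voom called 0 in both.

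**Figure D4:**
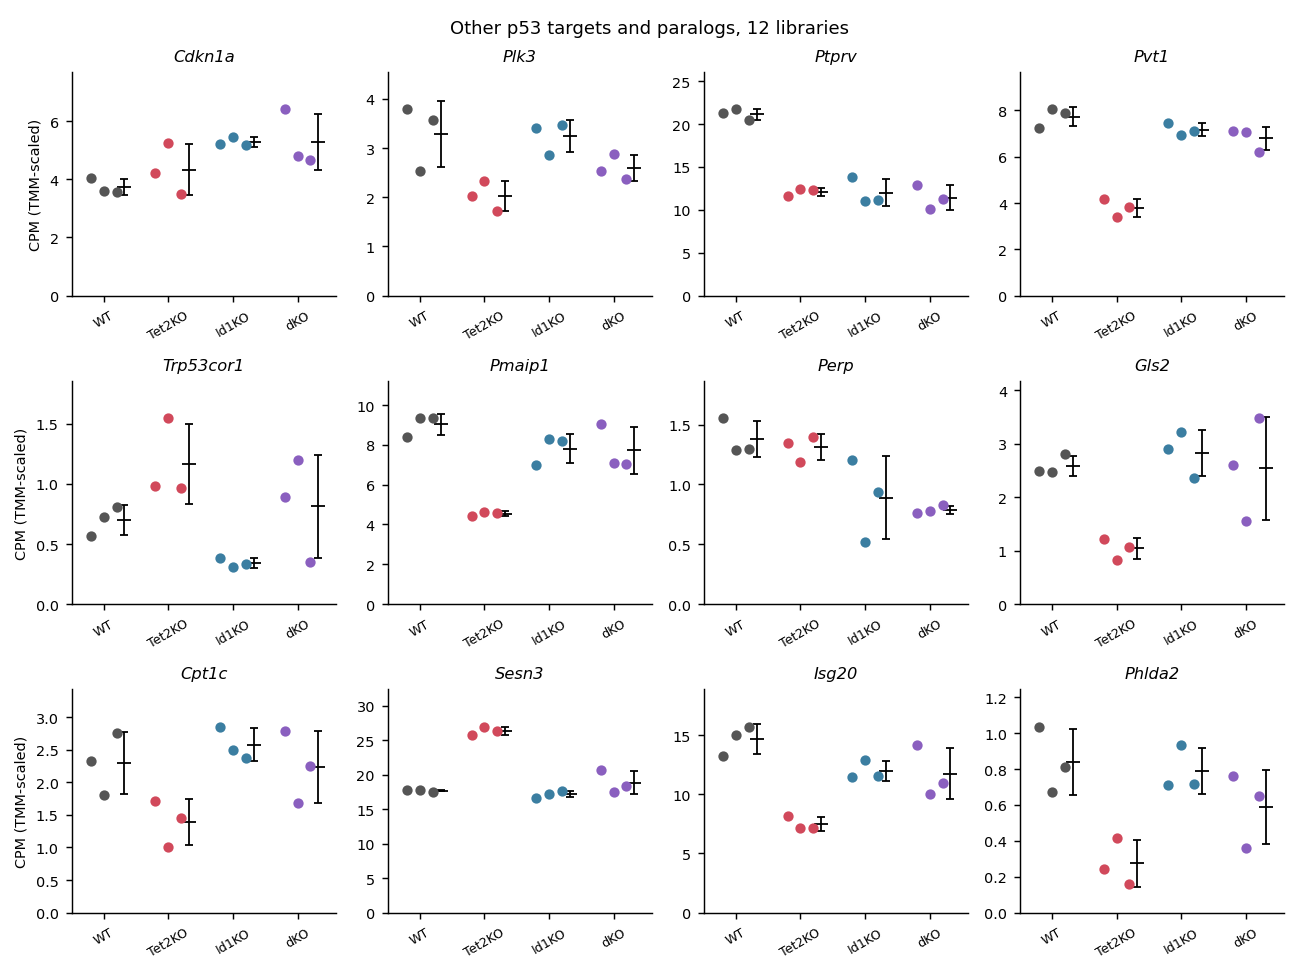
CPM in each of 12 libraries (y axes start at 0) of Cdkn1a and of the 11 other p53 targets and paralogs that were called with a log2 difference of at least 0.5 in a pairwise comparison, with the mean and SD of 3 libraries as black bars. Pvt1, Pmaip1, Gls2 and Isg20 are lowest and Sesn3 highest in the Tet2KO libraries.

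Regulators of p53 formed the remaining lists. Of 16 tested activators and cofactors, 5 were higher and 2 lower in Tet2KO against WT (32.8% of all genes called), 2 and 2 in Id1KO against WT (15.0%), and 4 and 4 in dKO against WT (19.2%). The ribosomal proteins Rpl5, Rpl11 and Rpl23 bind Mdm2 when ribosome assembly fails. Their transcripts were lower in dKO than in WT, by log2 fold changes of -0.15, -0.09 and -0.10. The call for Rpl11 was lost in 2 of 12 left-out fits and that for Rpl23 in 3. The highest edgeR adjusted p of each, 0.0849 and 0.0754, came without WT replicate 2. The call for Rpl11 was also lost in a fit of the compared libraries alone. Of 10 restraining factors, 1 was higher and 4 lower in Tet2KO against WT, beside 32.8% of all genes called. DESeq2 called 1 of the 10 and limma-voom 5, where they called 3592 and 4697 of all tested genes and edgeR 4699. The ubiquitin ligase Huwe1 was the one that rose, by 0.25 ± 0.029 (SE) with an edgeR adjusted p of 1.17e-06, and it also rose by 0.28 in dKO against Id1KO. Usp7, a deubiquitinase of p53 and Mdm2, changed by -0.08 in Tet2KO, a call that 8 of the 12 left-out libraries ended (adjusted p 0.246 when WT replicate 2 was dropped) and that DESeq2 did not make. Kmt5a, a histone and p53 methyltransferase, changed by -0.09 in Tet2KO and by 0.14 from Tet2KO to dKO. The first call was lost in 5 of 12 left-out fits (highest edgeR adjusted p 0.13, without Tet2KO replicate 3) and under DESeq2. The restraining factors numbered 1 higher and 2 lower in Id1KO against WT, and 2 higher and 1 lower in dKO against WT, beside 15.0% and 19.2% of all genes called, and DESeq2 called 2 in each. From Tet2KO to dKO 2 activators were higher and 5 lower (26.4% of all genes called), and from Id1KO to dKO 4 and 3 (19.3%). Restraining factors counted 1 higher and 0 lower, and 2 higher and 0 lower, in these comparisons, and DESeq2 called 1 in each.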

How the data were processed

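Per the labels' protocols, a column kit gave the RNA and a stranded kit with ribosomal depletion the libraries. The submitters' processing notes name STAR, RSEM and mm10. The counting settings are not given in the sources used here. The authors deposited estimated counts per gene, not normalized, and all 55450 identifiers matched GENCODE M21. Counts were rounded, filtered by filterByExpr (minimum count 10, 14346 genes), scaled by TMM and tested over all 12 libraries in edgeR's quasi-likelihood model, which held 1 mean for each genotype. P-values are two-sided and Benjamini-Hochberg adjusted over all tested genes, with a threshold of 0.05. With 3 libraries against 3, exact permutation p-values stop at 0.1, so none is given. Levels are TMM-scaled CPM. All 12 within-genotype pairs of libraries differed by more than sampling noise and were kept apart. This cannot tell repeat libraries of 1 cell sample from libraries of separate samples. The steps were tested on simulated data.

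The members and lists were chosen with earlier results of these data known. Genes were named by a rule: the 10 genes, Tet2, Id1, Cdkn1a, the 3 most abundant of each pathway list, every list gene called with an absolute log2 fold change of at least 0.5, and for each of the 10 genes the 2 most correlated genes with at least 5 CPM. The rule also held the 2 most abundant of each marker list, which are given mostly through summed levels. Marker genes named for the check of cell type beyond the 2 most abundant of a list were added after their values were seen. Near-identical stretches (95% identity over 100 bp) were sought with blast. Short ones of Aen, Mdm2, Mdm4 and Zmat3 occur in other genes. None of the 10 overlaps the exons of another gene. The alternatives were DESeq2, limma-voom, RLE and upper-quartile scaling, TMM without mitochondrial and small structural RNA genes, no filter, at least 10 counts throughout 1 genotype, a replicate block, fits of the compared libraries alone, libraries summed per genotype, each library left out in turn, and a threshold of 0.01. Software was blast 2.17.0, matplotlib 3.10.9, Python 3.11.15, R 4.3.3, DESeq2 1.42.0, edgeR 4.0.16 and limma 3.58.1.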

Additional observations from a re-analysis of the deposited data

Results flagged for a closer look

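For 3 of the 10 genes the change with the Id1 label differed between the WT and Tet2KO backgrounds by the interaction test, where 14.5% of all tested genes were called. The interaction was -0.75 for Trp53inp1, -0.21 for Mdm2 and 0.69 for Zmat3 on the log2 scale. Each of these 3 genes was given with the fits that left out 1 library. The call for Trp53inp1 was kept in all of them, and those for Mdm2 and Zmat3 were lost in 7 and 10 of 12. DESeq2 called 1 of the 3.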

How the results depend on the processing

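Counts of genes called moved by more than 1.5 times under some settings, and the cause was not tested unless named. With libraries summed per genotype, which leaves 4 samples, they were 232 instead of 4699 in Tet2KO against WT, 7 instead of 2156 in Id1KO against WT, 11 instead of 2754 in dKO against WT, 7 instead of 3793 in dKO against Tet2KO and 232 instead of 2762 in dKO against Id1KO, and of the 10 genes 0 were called in each. With additive effects the comparisons with 232 are the same estimate, and so are those with 7. Trp53inp1 in dKO against Id1KO was therefore 0.11, the value of Tet2KO against WT (edgeR adjusted p 0.813), and its reversed sign follows from the form of the model, which has no interaction. At a threshold of 0.01, which by construction calls fewer, the counts were 3122, 1085, 1557, 2285 and 1599 in the same order and 972 for the interaction, whose main count was 2078, and of the 10 genes 1 was called in Tet2KO against WT, 0 in dKO against WT, 0 in dKO against Id1KO and 1 in the interaction. DESeq2 called 1418 genes in Id1KO against WT and 1350 in the interaction, and of the 10 genes 1 in each of Tet2KO against WT, dKO against WT, dKO against Id1KO and the interaction. With only the libraries compared, 1 of the 10 was called in dKO against Id1KO. Leaving out 1 library gave 3808 to 4964, 1512 to 2386, 1999 to 2784, 2951 to 3847, 2109 to 2837 and, for the interaction, 1582 to 2161 genes, and 1 to 5, 3 to 4, 0 to 3, 4 to 4, 0 to 2 and 1 to 3 of the 10. Of the results for the 10 genes under all alternatives, 1258 kept their side of the threshold, 73 lost and 24 gained a call, and 1 called result reversed its sign. Results called in neither fit count among the 1258 even where their sign changed.

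With a replicate block the counts were 4523, 1952, 2565, 3592, 2576 and, for the interaction, 1871 genes, and 4, 3, 2, 4, 2 and 2 of the 10. In Tet2KO against WT the block fit called Mdm2 (edgeR adjusted p 0.041) and Sesn1 (0.0397) and not Trp53 (0.0535) or Usp7, and in the interaction it did not call Zmat3 (0.0604). Deviations of same-numbered libraries correlated from -0.282 to 0.307 (median 0.08), and those of differently numbered libraries from -0.321 to 0.454 (median -0.037). Of the 18 same-numbered pairs 7 exceeded 0.1, and 6 of 12 libraries correlated best with their own number. These values do not show a pairing by number and cannot exclude one or another shared structure. Eda2r and Phlda3 had 9 to 33 counts per library and the widest intervals of the 10.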
